A study of Mus musculus with 3 samples.

Results

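RBFOX2 clusters at NMD-specific exons are crosslink clusters that lay in, or within 500 nt of, an internal exon found in transcripts annotated as targets of nonsense-mediated decay (NMD) and in no protein-coding transcript of the same gene. A cluster was kept by its midpoint, on the strand of the gene, and was left out where that midpoint fell in an exon of a protein-coding transcript. The rule used positions and the annotation only, and no count. It kept 539 of 87021 clusters (0.619%, Wilson 95% interval 0.569 to 0.674%) with 14554 of 2850863 counts (0.511%). These clusters lay at 313 exon loci in 249 genes, where a locus is 1 exon or several overlapping exons of a gene. The study mapped contacts of the splicing factor RBFOX2 in primary hepatocytes, the metabolic cells that make up most of the liver, isolated from C57BL6/J mice on a control diet and plated before UV crosslinking. RNA was recovered with an Rbfox2 antibody (RBM9) by eiCLIP, in which a cDNA ends beside the crosslinked nucleotide, and the 3 libraries form 1 group whose labels each give 3 livers and 3 cell pellets. The methods state that a culture drew on more than 1 mouse, but on fewer than the 3 livers of the labels. Which mice entered which library is not clear. Clusters were called on the 3 libraries together, so no value has a spread between libraries, no test between samples could be made, and every interval covers counting error only.

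NMD destroys mRNAs in which translation stops ahead of a later exon junction. Many genes for splicing factors hold a highly conserved exon, often called a poison exon, whose inclusion brings in such a stop codon and lowers the amount of protein made. RBFOX proteins bind GCAUG in RNA and are known for a position effect, since binding in the intron downstream of an alternative exon tends to favour its inclusion and binding upstream its skipping.

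The annotation listed 7186 NMD transcripts in 4576 genes. Of their 40211 distinct internal exons, 2879 overlapped no coding-transcript exon of the gene, and these formed 2798 loci in 1609 genes. Poison-type loci, 1470 in number, lay in an intron of a coding transcript and were joined on both sides to exons that coding transcripts also use. A further 737 loci belonged to genes with no coding transcript at all. Among the 313 loci with a cluster, 202 were poison-type (365 clusters, 10020 counts, 187 genes), 43 were other exons of genes with coding transcripts (90 clusters, 2394 counts, 30 genes) and 68 belonged to genes with no coding transcript (84 clusters, 2140 counts, 37 genes).

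The exons themselves show how the reading frame ends. The stretches below, from GENCODE M21 transcripts on GRCm38, run from the first base of the exon to the annotated stop codon, which is in capitals. They are shown for the poison-type exons of splicing factors and of the genes with the highest counts, because these exons carry the results that follow. The Nktr exon is printed whole and has no capitals, since its shift of frame meets a stop codon in a later exon.
Snrnp70, chr7:45383159-45383184, minus strand: ccaccacgcagctggcttgcagcTGA
Sf3b1, chr1:55014905-55014924, minus strand: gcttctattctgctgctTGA
Srsf11, chr3:158024209-158024231, minus strand: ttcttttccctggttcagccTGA
Tra2b, chr16:22259181-22259261, minus strand: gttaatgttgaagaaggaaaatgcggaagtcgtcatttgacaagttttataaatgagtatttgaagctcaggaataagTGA
Hnrnpl, chr7:28817335-28817393, plus strand: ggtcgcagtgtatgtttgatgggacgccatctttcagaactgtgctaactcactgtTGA
Rbm39, chr2:156178881-156178952, minus strand: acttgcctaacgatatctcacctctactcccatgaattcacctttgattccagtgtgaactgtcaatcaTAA
Srrm2, chr17:23811817-23811859, plus strand: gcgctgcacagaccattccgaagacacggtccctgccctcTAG
Klf6, chr13:5863558-5863614, plus strand: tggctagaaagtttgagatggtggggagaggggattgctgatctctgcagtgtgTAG
Actg1, chr11:120347501-120347536, minus strand: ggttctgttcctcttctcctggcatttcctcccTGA
Deaf1, chr7:141324546-141324616, minus strand: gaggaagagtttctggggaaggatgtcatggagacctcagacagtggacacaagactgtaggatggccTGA
Ap2s1, chr7:16743591-16743620, plus strand: gtgactttcaaccaagatctgcagggcTGA
Sat1, chrX:155215217-155215230, minus strand: gttacagtctcTAG
Nktr, chr9:121729997-121730024, plus strand: agaatgtggtcttttgcaaaatgaaaag

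Where a cluster had sequence from an annotated exon, the RBFOX motif was looked for as GCATG, its DNA form, in the cluster and 50 nt on each side. The stretches of 30 nt below hold the motif in capitals, on the strand of the gene. They are from loci among the 10 with the most motif-bearing clusters, with ties ordered by summed count. The Taf1d and Tra2b loci had 2 such clusters each, and the other loci shown had 1, as did further loci not shown. In Actg1 a pair of copies lies within 1 stretch, and the Tra2b exon holds both of its copies inside itself.
Actg1, chr11:120347414-120347443, minus strand: atcacatttgtgGCATGcaGCATGcagagt
Tra2b, chr16:22258922-22258951, minus strand: tttgctaaacatGCATGcattatttgttta
Tra2b, chr16:22259132-22259161, minus strand: aaaagaaagaatGCATGctaattatcagac
Camk2d, chr3:126780145-126780174, plus strand: agagacaacagtGCATGagtttgcttccca
Son, chr16:91674469-91674498, plus strand: actggtagatttGCATGgatacttttttaa
Ccnl2, chr4:155818888-155818917, plus strand: gtgacaaaattgGCATGgtggaaattcagg
Myl6, chr10:128492812-128492841, minus strand: ctggtttctgcaGCATGacttaagttgaat
Rbm39, chr2:156177772-156177801, minus strand: ggctggctgctaGCATGgccacttggggct
Taf1d, chr9:15314303-15314332, plus strand: gatctccaggtcGCATGtaagttctcagaa
Taf1d, chr9:15314936-15314965, plus strand: tcttggctttgtGCATGttaaacctggtat

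The list as a whole set the frame for these values. Counts per cluster in the deposited list had a minimum of 10 and a median of 17, and the library depths are not given by it. All 8 hepatocyte markers held a cluster, from 11 counts in Cyp2e1 to 8110 in Alb. Of the 4 markers each of Kupffer, endothelial and stellate cells 1 held a cluster (Adgre1 with 15 counts, Stab2 with 12 and Reln with 150), and of the 4 cholangiocyte markers 0 did. Those with 0 clusters were Clec4f, Cd5l and Vsig4 of Kupffer cells and Clec4g, Pecam1 and Kdr of endothelial cells. Lrat, Dcn and Des of stellate cells and Krt19, Krt7, Epcam and Sox9 of cholangiocytes also had 0. A cluster records contact with RBFOX2 and not the level of an RNA, so the part of transcript abundance in any count or share below was not tested.

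Clusters at NMD-specific exons had slightly higher counts than other intronic clusters. Their median was 19 (quartiles 13 and 28, range 10 to 413), against 17 (13 and 24) for 49912 other intronic clusters. The mean log2 count was 4.385 against 4.215, a difference of 0.17, and it was 4.376 for other intronic clusters of the same genes. Clusters are not replicates, so no interval is given for these means. In the 249 genes themselves, 2403 other intronic clusters had a median of 18, with 13.98% in the top 10% of all counts (95% interval 12.65 to 15.43%), beside 13.9% (75 of 539, 11.3 to 17.1%) of the clusters at NMD-specific exons. The counts beside these exons were therefore those usual for the introns of the same genes. In all, 42 of the 539 sat at the minimum count of 10.

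**Figure D1:**
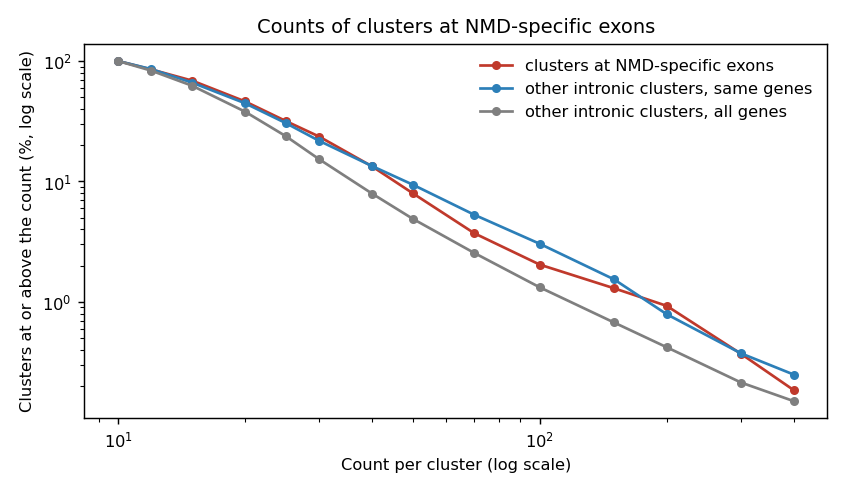
Share of clusters (%, log axis) at or above a given count per cluster (log axis) for the 539 clusters at NMD-specific exons (red), 2403 other intronic clusters of the same genes (blue) and 49912 other intronic clusters of all genes (grey). The red and blue lines run close together up to a count of about 40, and both lie above the grey line from a count of 20 to 300.

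Upstream introns and downstream introns held almost the same number of clusters. There were 231 upstream (6460 counts, median 20, highest 413), 232 downstream (6442 counts, median 18, highest 349) and 76 in the exon (1652 counts, median 17.5, highest 83). By locus, 105 had clusters upstream only, 114 downstream only, 32 in the exon only, 34 in both flanks without the exon, and 28 in the exon together with 1 or both flanks. The flanking clusters lay at a median distance of 198 nt from the exon (quartiles 85 and 351). Sides were set by the midpoint, and 27 of the 463 flanking clusters reached into the exon with part of their width. Most loci, 226 of 313, had 1 cluster, while 22 had 5 or more and the highest number was 11. Of the 539 clusters, 384 were nearer to the NMD-specific exon than to a coding exon, and 158 lay in an exon of a retained-intron transcript, where RNA of the retained intron and RNA of the NMD transcript cannot be told apart.

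The counts were concentrated in few exons. The 15 loci with the highest summed counts held 4752 of the 14554 counts (32.7%).

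Nktr, a cyclophilin-related protein with arginine-serine repeats, had the highest sum. Its 28-nt poison-type exon carried 722 counts in 8 clusters, 73.8% of all counts in the gene. The highest of all clusters at NMD-specific exons lay 167 nt upstream of it with 413 counts. A further 6 lay upstream, at 11 to 312 nt and with 12 to 61 counts each, and 1 lay in the exon with 43 counts. No cluster lay downstream of this exon, so that the Nktr locus was bound on 1 side and over the exon. Including 2 other NMD-specific loci, the gene had 11 such clusters with 772 counts.

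Srrm2 and Snrnp70 are parts of the splicing machinery itself. Srrm2, a large scaffold protein of the spliceosome, had 241 counts at a 261-nt exon: 38 at 69 nt upstream, 29, 11 and 15 in the exon, 120 at 65 nt downstream and 28 at 292 nt downstream. In Snrnp70, which encodes the protein U1-70K of the particle that recognises 5′ splice sites, a 60-nt exon had 209 counts in 8 clusters, with 10 to 23 counts at 34, 377 and 432 nt upstream. The 5 clusters downstream of the Snrnp70 exon lay at 25, 110, 168, 377 and 401 nt with 20, 77, 17, 10 and 29 counts. Both flanks of this exon were therefore bound, with the highest cluster downstream, and none of its 8 windows held GCATG. The exon accounted for 8.75% of the 2389 counts that the gene held in 65 clusters. Srrt, a partner of the nuclear cap-binding complex, had 202 of the 284 counts of its 330-nt exon in 1 cluster at 406 nt upstream.

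Deaf1 and Klf6 are transcription factors. Deaf1 had 339 counts at a 175-nt exon, of which 176 lay 51 nt upstream and 17 at 55 nt downstream. Klf6, a zinc-finger factor, had 336 counts at a 68-nt exon, of which 278 were in a cluster of 190 nt centred 25 nt downstream and 22 at 115 nt upstream. The Klf6 cluster covers the whole exon, while the highest cluster of Deaf1 lay wholly upstream of its exon. Llph had 349 of its 467 counts in a single cluster 232 nt downstream of its 153-nt exon, and the locus took 82.7% of the counts of the gene.

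Actg1, which encodes gamma-actin, had 277 counts in a cluster of 187 nt centred 22 nt downstream of its 45-nt exon, and 22 counts at 394 nt upstream. That cluster spans the whole exon and holds the pair of motif copies printed above. Both Actg1 clusters lay in an exon of a retained-intron transcript, so contact with that RNA and with the NMD transcript cannot be told apart. Ap2s1, the small subunit of the clathrin adaptor AP-2, had 11 clusters with 319 counts on both sides of a 90-nt exon, and the highest, with 83 counts, lay in the exon. Esyt2, a lipid-transfer protein of contacts between endoplasmic reticulum and plasma membrane, also had 11 clusters on both sides of a 63-nt exon (413 counts), from 89 counts at 47 nt upstream to 11 at 125 nt upstream. This exon was not poison-type, and the stop codon of its NMD transcript lies upstream of it. Myl6, a myosin light chain, had 212 counts at a 107-nt exon, with 60 in the exon and 35 at 77 nt downstream beside a motif.

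The remaining loci among the 15 differed in how much of their gene they took. Sat1, which acetylates spermidine and spermine, had 208 counts at a 110-nt exon with its highest cluster of 95 counts 254 nt upstream, 45.9% of the counts of the gene. Rbpms, an RNA-binding protein, had 9 clusters upstream of a 130-nt exon (12 to 37 counts each) and 1 in it, but these were 3.13% of the counts of a gene with 261 clusters. Lrrfip2 had 242 counts at a 102-nt exon, 210 of them at 64 to 380 nt upstream, and was the gene with most loci, 8, holding 21 clusters and 644 counts. These 8 loci all belong to 1 NMD transcript whose stop codon lies downstream of them. Most of them, the 102-nt exon included, were not poison-type. The 240 counts at a Gm21969 exon lay downstream of it in 5 clusters, and that exon is also a coding exon of Iffo2. In all, 85 loci held the highest cluster of their gene, and among the 233 loci in genes with 5 or more clusters, 42 did. A gene with 1 cluster has its highest there by definition, and the share at other exons was not computed.

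**Figure D2:**
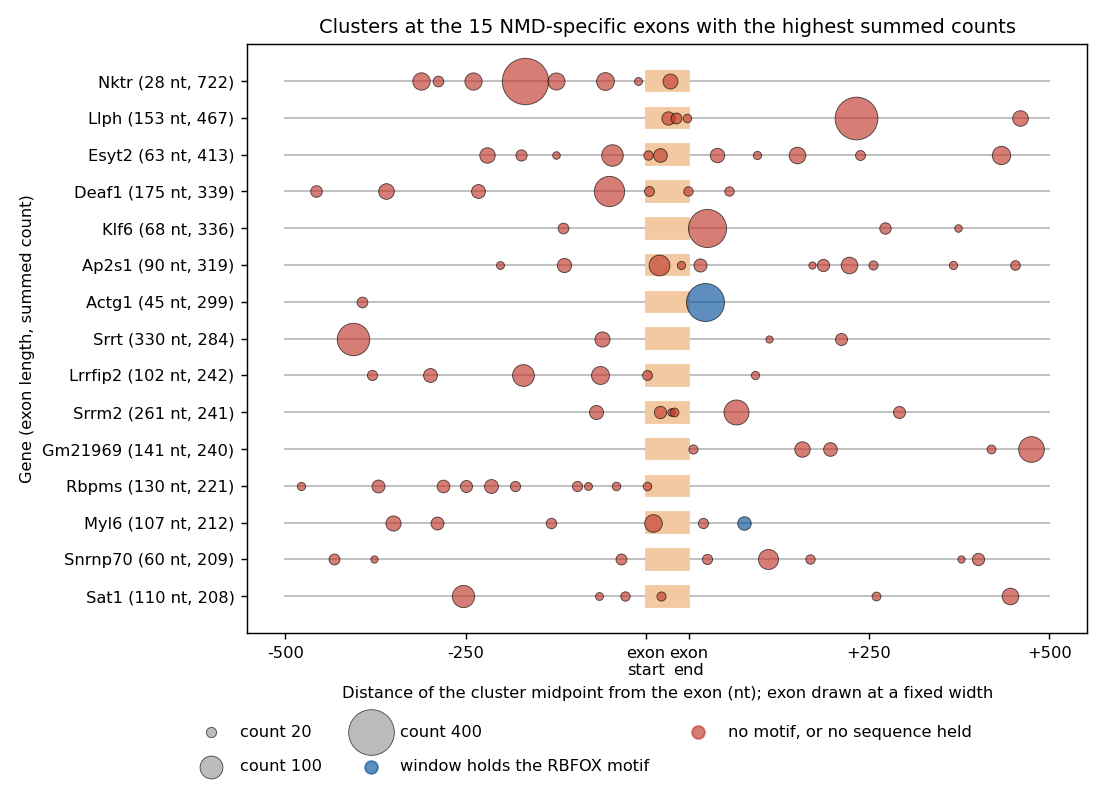
Map of the clusters at the 15 NMD-specific exons with the highest summed counts, with distance from the exon in nt on the horizontal axis (5′ to the left, exon drawn at a fixed width), 1 line per locus and circle area proportional to count. Nktr, Lrrfip2 and Rbpms have most of their counts to the left of the exon, Klf6, Actg1 and Llph to the right by midpoint, and Snrnp70, Ap2s1 and Esyt2 on both sides; windows with the motif are blue.

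Among the gene lists examined, those of splicing factors had the highest shares of NMD-specific exons with a cluster. Over all genes, 313 of 2798 loci (11.2%) had one. In the lists of SR proteins and Tra2, of hnRNPs and Ptbp, of tissue splicing regulators, of U1, LUC7-like and core spliceosome proteins and of splicing kinases, 35 of the 64 loci of these 5 lists had one (54.7%, Wilson 95% interval 42.6 to 66.3%), in 27 of 42 genes with such a locus, with 87 clusters and 2087 counts. Genes in no list had one at 277 of 2728 loci (10.2%, 9.08 to 11.3%). The median count of the 87 clusters was 17, beside 19 for all 539, so that the splicing genes had more bound exons and not higher clusters.

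SR proteins recognise exonic enhancers. Their list, which also holds other proteins such as the scaffolds Srrm2 and Son, had a cluster at 10 of 16 loci (62.5%, 38.6 to 81.5%). Srsf11 had 154 counts at a 109-nt exon, with 7 clusters of 15 to 24 counts at 48 to 481 nt upstream, 15 counts in the exon and 17 downstream. Son, a nuclear speckle scaffold, had 126 counts upstream of an 80-nt exon in 5 clusters, the highest with 52 at 118 nt. Tra2b had 31 and 47 counts inside its exon, both beside a motif, and 20 counts at 475 nt downstream, together 53.3% of the counts of the gene. Its paralog Tra2a had 40 counts 6 nt downstream of a 306-nt exon, and Srsf3 had 91 counts at a 456-nt exon, 45 of them 308 nt downstream; both of these were chosen after their values were seen. In Srsf11 and Son the clusters lay mainly upstream, and in Tra2b mainly in the exon.

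Of the U1, LUC7-like and core spliceosome loci, 14 of 20 had a cluster (70%, 48.1 to 85.4%). Beside Snrnp70, described above, Luc7l2, a U1-associated factor that influences the choice of 5′ splice site, had 6 clusters with 112 counts at 3 loci. These 3 Luc7l2 loci were not poison-type and belong to the same NMD transcripts, whose stop codon lies downstream of them. One of the Luc7l2 exons held 38 counts inside, 12 at 420 nt upstream and 10 at 90 nt downstream. Another had 24 and 18 counts at 35 and 181 nt downstream. Sf3b1, the branch-site recognition protein of the U2 particle, had 43 counts at 296 nt downstream of a 56-nt exon. This was the highest of the 12 clusters in Sf3b1. The other genes of the list with such a cluster were Prpf4b, Prpf39, U2af1, Prpf3, Prpf38b, Luc7l, Snrpa and Snrpb, with 10 to 32 counts per cluster, and they are named to complete the list. Prpf4b, which is also on the list of splicing kinases, had 32 counts at 91 nt upstream of a 141-nt exon and was the 1 bound locus among the 4 of that list.

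The list labelled tissue splicing regulators, which also holds RNA-binding proteins of other kinds, had a cluster at 9 of 20 loci (45%, 25.8 to 65.8%). These lay in Rbm39, Rbm3, Cirbp, Tia1, Khdrbs1 and Tial1, and whether any of them is restricted to a tissue was not tested. Rbm39, a U2AF-related splicing factor, held 4 of these 9 loci, with 11 clusters and 309 counts. Its 73-nt exon had 11 counts inside and 47, 20 and 48 at 85, 172 and 305 nt downstream. Its 274-nt exon had 73 counts at 85 nt upstream, and its 72-nt exon had 35, 25 and 10 counts at 154, 358 and 440 nt upstream. The exons of this single gene were thus bound on different sides. The cold-inducible proteins Rbm3 and Cirbp had 40 and 33 counts at their loci, and Tia1, Khdrbs1 and Tial1, named to complete the list, had 22, 17 and 15.

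The hnRNP list had a cluster at 2 of 6 loci (33.3%, 9.68 to 70%). Hnrnpa1 had 28, 41 and 94 counts at 409, 325 and 55 nt upstream of a 76-nt exon that follows the stop codon of its transcript. Hnrnpl had 12 and 28 counts at 406 and 308 nt upstream and 36 at 456 nt downstream of its 70-nt poison-type exon. Of the lipid, sterol and lipoprotein genes, 1 of 6 loci had a cluster (16.7%, 3.01 to 56.4%), in Lpin2, a phosphatidate phosphatase of triglyceride synthesis, with 27 counts at 48 nt and 18 at 402 nt upstream of a 51-nt exon. The lists of NMD and exon junction complex factors, of ribosomal proteins and translation factors, and of hepatic metabolism and secreted proteins had 0 NMD-specific loci in this annotation, although 20, 42 and 42 of their genes held a cluster somewhere. The 0 holds for the genes put on these lists: outside them Rps19, Rps18, Rpl37a and Eef1b2, which serve translation, had 50, 36, 23 and 33 counts at poison-type loci, and they were chosen after their values were seen.

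Among the genes that the study names as targets, and Rbfox2 itself, 1 had an NMD-specific locus with clusters, the Snrnp70 exon. Ptbp2 and Numb have 2 annotated NMD transcripts each and Osbpl9 has 1, but 0 NMD-specific internal exons, and Scarb1, Pla2g6, Sec31a and Rbfox2 have 0 NMD transcripts.

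NMD-specific exons were then compared with coding exons of the same genes, to see whether contact beside them was more frequent than beside other exons. Only the 500 nt on each side, outside coding exons, were used. Cassette exons are skipped by at least 1 spanning coding transcript, and constitutive exons are used by every one of at least 2. At poison-type loci 184 of 1470 had a flanking cluster (12.5%, Wilson 95% interval 10.9 to 14.3%). The share was 8.51% of 8033 constitutive exons (7.92 to 9.15%), a difference of 4.002 percentage points (Newcombe 95% interval 2.29 to 5.89). It was 11.4% of 1363 cassette exons (9.79 to 13.2%), a difference of 1.15 points (-1.26 to 3.53). Poison-type exons thus had a flanking cluster more often than constitutive exons, beyond counting error, while the interval of the difference from cassette exons held 0. Exons of 1 gene share its RNA level. Weighted to the 955 genes that had both kinds, the constitutive share was 10.5% beside 13.3% for the poison-type loci, and in 616 genes with cassette exons it was 12.45% beside 12.66%.

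Over all 2061 loci of genes with coding transcripts the share was 10.97% (226 loci), beside 10.95% of cassette exons and 8.47% of constitutive exons. Clusters in both flanks were seen at 2.38% of poison-type loci (35), 1.76% of cassette exons and 0.672% of constitutive exons, and the difference between the first and the last was 1.71 points (1.01 to 2.63).

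Within the splicing genes the contrast was larger. In the 5 splicing lists 34 of 64 NMD-specific loci had a flanking cluster (53.1%, 41.1 to 64.8%), against 12 of 49 cassette exons (24.5%, 14.6 to 38.1%) and 64 of 240 constitutive exons (26.7%, 21.5 to 32.6%) of the same genes. The differences were 28.6 points (10.5 to 44.0) from cassette and 26.5 points (13.03 to 39.3) from constitutive exons. In the 33 genes with both kinds, 27 of 48 NMD-specific loci had one (56.2%), beside a weighted constitutive share of 30.6%. Genes in no list gave 9.59% (191 of 1991) for NMD-specific loci, 10.4% (154 of 1473) for cassette and 7.86% (682 of 8672) for constitutive exons, and the difference from cassette exons was -0.86 points (-2.93 to 1.14). NMD-specific loci of the splicing genes exceeded those of genes in no list by 43.5 points (31.4 to 55.3). Coding exons of the splicing genes also had flanking clusters more often than those of genes in no list, so part of the gap was not particular to NMD-specific exons. These lists were drawn up with earlier results of these data known, and the exons of a gene are not independent of each other.

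**Figure D3:**
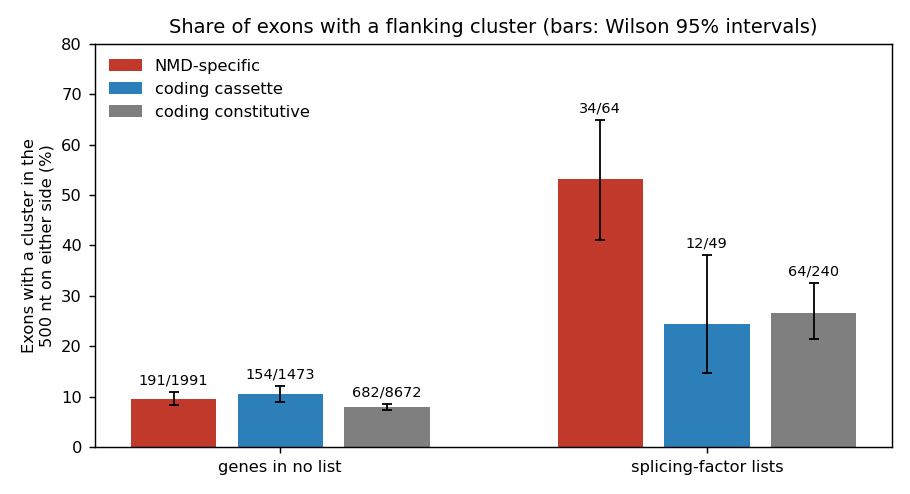
Exons (%) flanked by a cluster within 500 nt on either side, for NMD-specific (red), cassette (blue) and constitutive (grey) exons of genes in no list (left) and in the 5 splicing lists (right), with Wilson 95% intervals and the numbers of exons above the bars. In the splicing genes 34 of 64 NMD-specific exons had a flanking cluster, above both kinds of coding exon, while in the other genes the 3 bars lie between 7.86 and 10.4%.

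Densities of clusters per kb were also compared. Around NMD-specific loci of the splicing genes there were 76 clusters in 59.0 kb of flank, or 1.29 per kb (exact Poisson 95% interval 1.01 to 1.61), beside 0.319 per kb (0.174 to 0.535) at their cassette and 0.415 (0.330 to 0.515) at their constitutive exons. Genes in no list had 0.172 (0.153 to 0.192), 0.147 (0.128 to 0.169) and 0.0897 (0.0832 to 0.0966) per kb.

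Around all poison-type loci, contact was spread evenly over the flanks. A cluster beside more than 1 locus counted at each. The density was 0.226 clusters per kb upstream (156 clusters, 0.192 to 0.265), 0.231 in the exon (47 clusters, 0.170 to 0.308) and 0.243 downstream (166 clusters, 0.207 to 0.283), and the log2 ratio of downstream to upstream was 0.10 (95% interval -0.21 to 0.42). The side of the exon thus made no difference beyond counting error. In the first 100 nt downstream the density was 0.309 per kb (0.225 to 0.414) from 45 clusters with 1711 counts, the highest of the 10 bins, but its interval overlapped those of the other 9. Introns of the same genes more than 500 nt from these loci had 0.0637 clusters per kb (0.0621 to 0.0653), from 6286 clusters.

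Coding exons had lower densities upstream, at 0.132 per kb (0.105 to 0.163) for cassette and 0.104 (0.0940 to 0.115) for constitutive exons. Downstream they had 0.194 (0.161 to 0.231) and 0.124 (0.113 to 0.136). The intervals of poison-type and cassette exons were apart upstream and overlapped downstream. These intervals take each cluster as independent, although several clusters can lie at 1 locus. Counted by exon, 99 of 1470 poison-type loci (6.74%) and 80 of 1363 cassette exons (5.87%) had an upstream cluster. That difference of 0.865 percentage points had an interval that held 0 (-0.942 to 2.66).

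**Figure D4:**
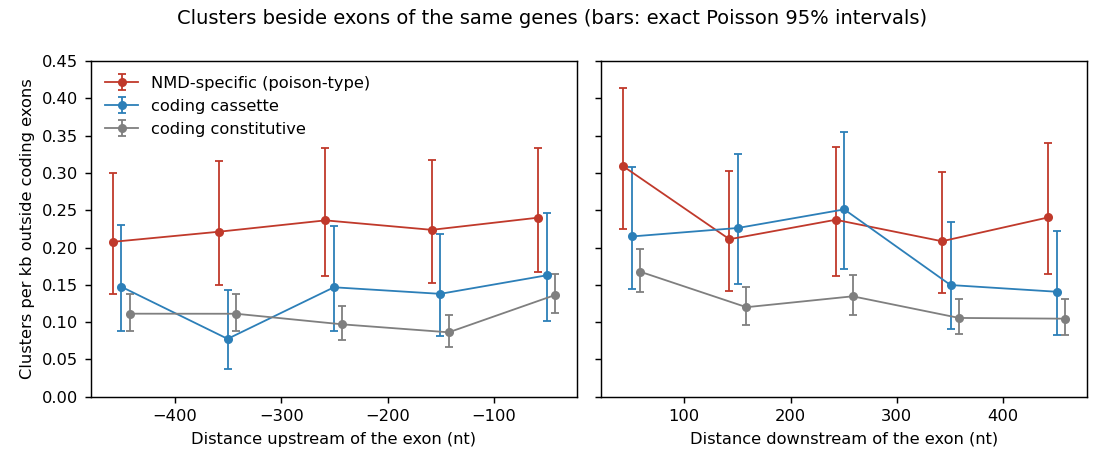
Clusters per kb outside coding exons in bins of 100 nt upstream (left) and downstream (right) of poison-type NMD-specific (red), cassette (blue) and constitutive (grey) exons of the same genes, with exact Poisson 95% intervals. The red points lie between 0.208 and 0.309 per kb in all bins, and the highest is the first bin downstream.

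The RBFOX motif was present at some of these contacts. Of 539 clusters, 172 had sequence over the whole window, and 31 of these windows held GCATG on the strand of the gene (18.02%, Wilson 95% interval 13 to 24.5%). Windows of the same width displaced by 200 or 300 nt held it in 53 of 387 (13.7%, 10.6 to 17.5%), and the difference of 4.33 points had an interval of -1.963 to 11.5. Other intronic clusters held it in 25.8% of 4119 windows (24.4 to 27.1%), and the difference of -7.74 points had an interval of -12.9 to -1.18. The excess over displaced windows was within counting error. The lower share than at other intronic clusters kept its direction in 6 of 6 alternatives, but in 3 of them the interval held 0 for TGCATG (-4.13 points, -8.03 to 1.44), for counts at or above the median (-8.94, -15.94 to 0.194) and for counts in the top 10% (-8.43, -23.8 to 11.6). Among the 6 is CATGC, a shifted motif, which was also less frequent than at other intronic clusters (-6.24 points, -10.04 to -0.753). CATGC overlaps GCATG in sequence, so whether the lower share was particular to GCATG was not tested. For TGCATG, a longer form, the excess over displaced windows was 5.56 points (0.98 to 11.3), from 10.5% and 4.91%. The intervals of these differences take each window as independent, although windows of neighbouring clusters can overlap. Displaced windows were not paired with their clusters. Sequence was held only where annotated exons cover the window, so most clusters in the flanks were not examined.

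By side, the motif was in 9 of 66 windows upstream (13.6%, 7.34 to 23.9%), 9 of 40 in the exon (22.5%, 12.3 to 37.5%) and 13 of 66 downstream (19.7%, 11.9 to 30.8%), with overlapping intervals. It was in 8 of 25 windows (32%, 17.2 to 51.6%) of clusters in the top 10% of counts. The 31 windows held 37 copies, 18 of them preceded by T, and 4 copies began within 10 nt of the 5′ end of the cluster. One of these 4 was in Camk2d, a calcium/calmodulin-dependent kinase, where the copy began 8 nt ahead of a cluster of 39 counts at 171 nt downstream of the exon. In Son the copy began 27 nt ahead of a cluster of 27 counts upstream of the exon, and in Ccnl2, a cyclin of the splicing kinase CDK11, 33 nt after the 5′ end of a cluster of 12 counts downstream. The Tra2b copies began 20 and 31 nt ahead of the clusters of 47 and 31 counts inside its exon.

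**Figure D5:**
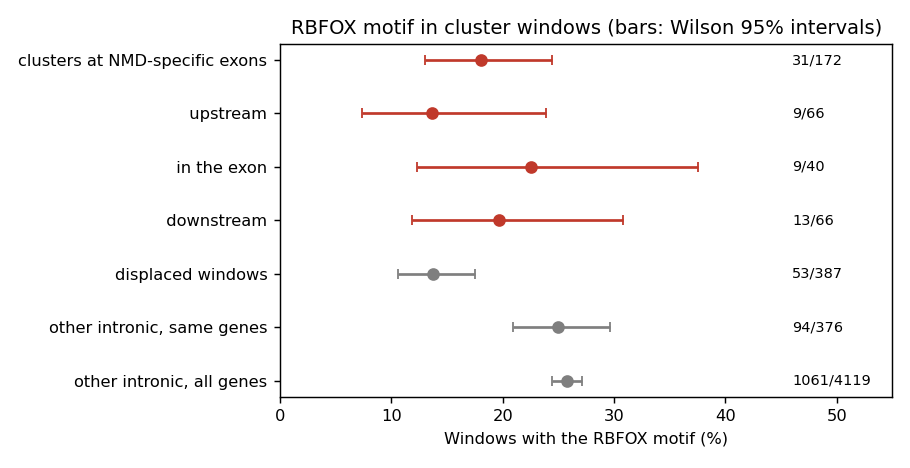
Share of windows (%) holding GCATG, with Wilson 95% intervals and numbers of windows at the right, for clusters at NMD-specific exons and by side (red) and for displaced windows and other intronic clusters (grey). The 18.02% of clusters at NMD-specific exons lies between 13.7% of displaced windows and 25.8% of other intronic clusters.

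Length and stop codons of the exons were then compared. Poison-type exons with a cluster had a median length of 113.5 nt and those without one of 109 nt. Over all 1470 the length was a multiple of 3 in 32.2%, against 54.3% of cassette exons of the same genes, a difference of -22.1 points (-25.5 to -18.6), and 38.1% of constitutive exons. A length that is a multiple of 3 was therefore less frequent among poison-type exons than among coding cassette exons. Such a length does not mean that the reading frame was kept, since 76.3% of the 1470 poison-type exons held the stop codon inside. The exons were taken from transcripts annotated as NMD targets, and a difference beyond that choice was not tested. The stop codon of the NMD transcript lay inside the exon in 80.2% of those with a cluster (74.2 to 85.1%) and in 75.7% of those without (73.3 to 78.0%), a difference of 4.49 points (-1.97 to 9.97). GCATG was found within 37 of 202 exons with a cluster (18.3%, 13.6 to 24.2%) and 148 of 1268 without (11.7%, 10.02 to 13.6%), a difference of 6.65 points (1.56 to 12.8). Per kb of exon the motif occurred 1.32 times (0.960 to 1.77) and 1.01 times (0.864 to 1.17), with overlapping intervals.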

How the data were processed

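The authors made the cluster list from 3 eiCLIP libraries. Per the methods and the submitters' processing notes, reads were demultiplexed with CASAVA 1.8.4, trimmed with cutadapt, kept from 18 nt and aligned to GRCm38 (mm10) with STAR 2.4.2a, and crosslink positions were grouped into clusters over the pooled libraries. The deposited value per cluster is a count, read here as cDNA starts because the values were whole numbers from 10 upward. It was not normalised, and the list has 1 pooled column and 0 columns of single samples. The size-matched input was not used here.

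Clusters were placed on GENCODE M21 (the study named M20). The members and gene lists were chosen with earlier results of these data known. Genes were named if their locus was among the 15 highest summed counts, among the 4 highest of a list, in a target named by the study or in Rbfox2, or among the 10 with most motif-bearing clusters. Sequence was read from GENCODE transcripts by the coordinates of their exons. Shares have Wilson, differences Newcombe and densities exact Poisson 95% intervals, for counting error only. Alternatives changed the flank, overlap rule, count filter, merging, exon set, motif and window. Python 3.11.15, numpy 2.4.6, pandas 2.3.3, scipy 1.17.1 and matplotlib 3.10.9 were used, and the placement was tested on simulated clusters.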

Additional observations from a re-analysis of the deposited data

How the results depend on the processing

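The number of clusters at NMD-specific exons depended on its definition. It was 215 with a flank of 100 nt, 319 with counts at or above the median of 17, 75 with counts in the top 10%, and 300 without exons shared with retained-intron or processed transcripts. It stayed within 1.5 times of 539 in the other 6 settings, from 365 (clusters merged within 200 nt) to 533. Among these, leaving out genes with no coding transcript (455) and clusters in small RNA genes (533) were chosen after seeing the data. With CATGC, a shifted motif, the difference between clusters and displaced windows was -2.78 percentage points (-7.94 to 3.35), against 4.33 for GCATG. Over all loci of genes with coding transcripts, the difference from constitutive exons was 2.495 points. It stayed above 0 with its interval in all 6 alternatives, from 1.24 points to the 4.002 of poison-type loci. The other alternatives were not run on poison-type loci alone. The difference from cassette exons had an interval that held 0 in all 6. The motif difference from other intronic clusters stayed below 0 in all 6, with an interval that held 0 in 3. These 6 include the shifted motif CATGC, at -6.24 points (-10.04 to -0.753). Because CATGC overlaps GCATG, it cannot show whether the difference was particular to GCATG. The excess of GCATG over displaced windows had an interval that held 0 in all but TGCATG. No paired analysis was possible because the 3 libraries form 1 group and were pooled before clusters were called. For the same reason no library could be left out in turn. The minimum count of 10 limits what can be seen: an exon with no cluster is not shown to lack contact.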

Other observations

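Taf1d, a subunit of the RNA polymerase I selectivity factor whose introns host small nucleolar RNAs, had 13 clusters with 373 counts at 3 NMD-specific loci. Its largest exon (1142 nt) had 49, 40 and 37 counts inside, the last of them within the small RNA gene Gm25791, and 11 counts in Gm24455 at 112 nt upstream. At another of its loci, 35 and 19 counts lay in Gm24357. Bound small RNA and bound Taf1d RNA cannot be told apart at these 4 clusters. They make up most of the 6 clusters at NMD-specific exons that lay in small RNA genes.

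Genes with no coding transcript are mostly joined transcripts of neighbouring genes, and 709 of their 737 NMD-specific loci overlap a coding exon of another gene. All 84 of their clusters lay at such loci. The Gm49388 locus, at a coding exon of Hsd3b7, had 75 counts at 160 nt downstream with a motif 1 nt and another 18 nt ahead of the cluster. The Gm20716 locus, at a coding exon of Dpm1, had 53 counts at 101 nt downstream. For these exons the NMD-specific label describes the annotation of the joined gene, and the same bases are coding in its neighbour.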
